A study of Mus musculus with 2 samples.

Results

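The nuclear-encoded subunits of the mitochondrial respiratory chain and ATP synthase were described in the adrenal gland of the mouse. Members were the protein-coding nuclear genes whose symbols name a subunit of complexes I to V (Nduf, Sdh, Uqcr and Cyc1, Cox and Atp5 genes). Of 55536 annotated genes, 86 qualified: 35 of complex I, 4 of complex II, 9 of complex III, 20 of complex IV and 18 of complex V. Ndufa4 and its paralog Ndufa4l2 were placed in complex IV, where the Ndufa4 protein resides in spite of its name. The symbol Atp5o belonged to 2 annotated genes, so the 86 genes carry 85 symbols. A further 12 genes with symbols of the same pattern lacked a protein-coding transcript and were kept apart.

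Total RNA was sequenced from adrenal tissue of adult female mice, 8 to 10 months old, of the strain B6CASTF1/J, a first-generation hybrid of C57BL/6J and CAST/EiJ. There was 1 group of 2 animals, untreated as far as the labels say: replicate 1 (animal 1) and replicate 2 (animal 3), each from 300 ng of RNA. The labels give both animals one donor code, and the tables hold whole tissue with both parental alleles merged. With 1 library from each animal no test was possible, so every difference between the animals is given as a ratio and without a p-value.

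The respiratory chain passes electrons from NADH (complex I) and succinate (complex II) through coenzyme Q, complex III and cytochrome c to oxygen at complex IV, and complex V uses the resulting proton gradient to make ATP. Complexes I, III, IV and V combine subunits encoded in the nucleus with a few encoded by mitochondrial DNA, while complex II is encoded by nuclear genes alone. In the adrenal cortex mitochondria also hold steps of steroid hormone synthesis, served by a separate electron chain of ferredoxin reductase and ferredoxin. Several complex IV subunits exist as paralogs, of which Cox6a2, Cox7a1 and Cox8b are known from heart, skeletal muscle and brown fat.

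Levels were deposited by gene, from alignments (the gene table, used unless another is named), and by transcript, from an index of transcripts (the index table). Expected counts of genes summed to 40362256 in replicate 1 and 34235715 in replicate 2, and the members took 0.885% and 0.761% of them. A count of 3, taken as the limit of detection, corresponded to 0.0743 and 0.0876 CPM. Cortex markers were abundant in both libraries, with a summed level of 22760 and 23283 TPM (a level per transcript length, scaled to the same total in every library) over 6 genes. The 5 chromaffin cell markers of the medulla summed to 2136 and 1921 TPM. Fat cell markers were present too: 7 general adipocyte genes summed to 1339 and 734 TPM, and 4 brown adipocyte genes to 268.9 and 93.3 TPM. None of those 11 fat markers was at 0 in either animal. The 4 smooth muscle markers summed to 62.6 and 43.5 TPM, and the 8 markers of skeletal and heart muscle to 0.090 and 1.12 TPM. Because the tissue was sequenced in bulk, fewer cells of a type and less RNA per cell cannot be told apart anywhere below.

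Promoter sequences are shown for 8 members, chosen after the motif matches were known: 4 widely expressed genes with a match, and the tissue-restricted isoforms Cox8b and Cox7a1 with their widely expressed partners Cox8a and Cox7a2, which have no match in the bases shown. They illustrate the search and not a contrast between gene classes. Each is the 150 bases before the start of the gene, 5′ to 3′ on the gene's strand, from RefSeq on GRCm38.p6. Capitals mark matches to the core motif of the activator NRF1 (GCATGCGC, with overlapping matches on both strands merged) or of ETS factors, the family of GABPA (CCGGAAG), on either strand.
Cox6a1 (chr5:115348982-115349131, minus strand): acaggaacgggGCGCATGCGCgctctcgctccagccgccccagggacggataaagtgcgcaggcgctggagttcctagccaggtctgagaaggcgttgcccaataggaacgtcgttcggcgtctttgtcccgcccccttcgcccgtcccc
Ndufa6 (chr15:82354323-82354472, minus strand): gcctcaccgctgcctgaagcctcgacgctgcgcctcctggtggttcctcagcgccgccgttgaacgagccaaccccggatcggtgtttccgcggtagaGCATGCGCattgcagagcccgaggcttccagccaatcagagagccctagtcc
Sdhd (chr9:50603850-50603999, minus strand): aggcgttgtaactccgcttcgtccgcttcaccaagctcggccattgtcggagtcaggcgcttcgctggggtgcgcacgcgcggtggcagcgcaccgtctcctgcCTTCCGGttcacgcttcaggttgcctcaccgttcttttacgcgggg
Uqcr11 (chr10:80406831-80406980, minus strand): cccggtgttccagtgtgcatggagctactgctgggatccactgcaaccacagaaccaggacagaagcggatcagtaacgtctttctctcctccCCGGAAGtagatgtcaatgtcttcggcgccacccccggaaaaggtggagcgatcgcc
Cox8a (chr19:7217617-7217766, minus strand): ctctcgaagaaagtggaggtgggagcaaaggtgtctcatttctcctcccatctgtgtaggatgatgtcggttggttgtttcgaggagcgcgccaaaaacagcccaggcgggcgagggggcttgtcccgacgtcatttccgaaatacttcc
Cox7a2 (chr9:79759879-79760028, minus strand): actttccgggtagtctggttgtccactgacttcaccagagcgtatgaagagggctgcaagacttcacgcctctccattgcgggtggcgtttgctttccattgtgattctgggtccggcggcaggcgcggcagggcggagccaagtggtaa
Cox8b (chr7:140900447-140900596, minus strand): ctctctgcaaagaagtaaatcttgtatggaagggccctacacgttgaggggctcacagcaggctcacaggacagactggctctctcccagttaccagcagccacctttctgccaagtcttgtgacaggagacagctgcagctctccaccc
Cox7a1 (chr7:30183994-30184143, plus strand): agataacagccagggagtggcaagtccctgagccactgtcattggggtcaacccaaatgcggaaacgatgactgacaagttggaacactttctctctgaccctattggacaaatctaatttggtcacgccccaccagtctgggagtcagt

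Of the 86 members, 69 had a promoter in the RefSeq table, which reaches from 250 bases before to 50 bases after the start. The NRF1 core was found in 10 of the 69 (14.5%) against 824 of 27025 genes (3.05%). For the ETS core the counts were 16 of 69 (23.2%) against 2683 of 27025 (9.93%), and for the core of the factor YY1 (AAGATGGC) 10 of 69 (14.5%) against 862 of 27025 (3.19%). At least 1 of these motifs was found in 30 of the 69 (43.5%) against 14.9% of all genes. The other 39 had none, among them Cox8b and Cox7a1 but also Cox7a2. In Cox8a an ETS core was found, but not within the bases shown. The 27025 genes are all those with a promoter in the RefSeq table and were not matched to the members by gene type or expression. A match is a description of letters and not of binding.

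Subunit genes were among the more abundant coding messages of the gland. With a mean expected count of at least 10 as the requirement, 83 of the 86 members were measured. Their median level was 122.6 TPM in replicate 1 and 107.7 TPM in replicate 2, where nuclear protein-coding genes with a mean count of 100 or more had a median of 11.6 and 12.3 TPM. In both animals 43 members stood at 100 TPM or more and 78 at 10 TPM or more. Of all 17751 genes with a mean count of 10 or more, 627 and 6689 did so. Cox7b2 and Cox8c, isoforms known from testis, had no count in either animal, and the second Atp5o gene had 0 and 6.51 counts. The members were short: the median length was 654 bases against 2474 bases for measured nuclear protein-coding genes, and 64 of 83 (77.1%) were under 1000 bases against 8.55%. At like length and count the gap in level was smaller. Under 1000 bases and with a mean count of 100 or more, 60 members had medians of 139.7 and 117.6 TPM. All 916 nuclear protein-coding genes within these limits had 30.3 and 30.9 TPM.

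**Figure D1:**
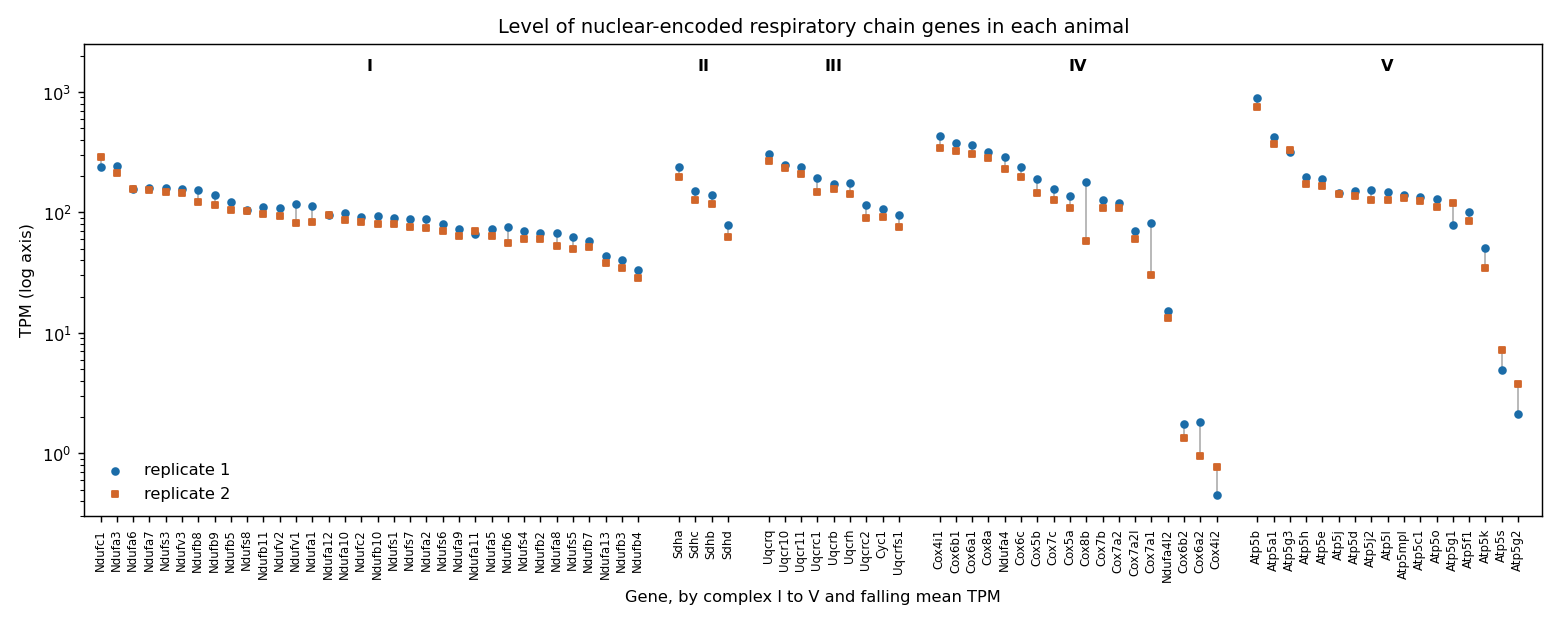
TPM of measured members (log axis) in replicate 1 (circles) and replicate 2 (squares), ordered within complexes I to V by falling mean. Most replicate 1 circles lie above the replicate 2 squares, with the widest gaps at Cox8b and Cox7a1 in complex IV, and Atp5g1, Ndufc1 and Atp5g3 are among the few with the square on top.

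Complex I members had a median of 86.9 ± 7.88 TPM (mean ± SD of the medians in the animals, n = 2). Complex II stood at 133 ± 16.3 TPM, complex III at 161 ± 18.7, complex IV at 128 ± 26.9 and complex V at 136 ± 11.9 TPM (n = 2 each). The complex I median was the lowest in each animal, at 92.4 and 81.3 TPM. Complexes II, IV and V lay within 1 SD of each other and keep no order.

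Among complex I genes Ndufc1, a small supernumerary subunit of the membrane arm, was highest with 236 TPM in replicate 1 and 290.2 TPM in replicate 2. The supernumerary subunit Ndufa3 was also among the 3 highest, with 241 and 213.7 TPM. The lowest were Ndufa13 (43.1 and 37.6 TPM), Ndufb3 (39.9 and 34.4 TPM) and Ndufb4 (33.5 and 28.7 TPM), all supernumerary. The 7 nuclear core subunits, which carry the flavin, the iron-sulphur clusters and the quinone site, had medians of 109.4 and 93.6 TPM, and the 28 supernumerary subunits 89.2 and 76.8 TPM.

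In complex II, Sdha, the flavoprotein that oxidizes succinate, measured 237 and 197.5 TPM. Its iron-sulphur partner Sdhb measured 138 and 117.9 TPM. The membrane anchors differed from each other: Sdhc stood at 151.5 and 125.8 TPM and Sdhd at 78.7 and 62.7 TPM. All 4 were higher in replicate 1, and no deposited interval of a gene in one animal reached that in the other. This was not particular to complex II. By scaled counts 78 of the 83 measured members (94.0%) were lower in replicate 2, against 51.0% of all 17751 measured genes. Intervals were apart and lower for 60 of the 79 members that averaged at least 100 counts (75.9%). Of all nuclear protein-coding genes reaching that average, 9.55% had such intervals.

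In complex III the highest gene was Uqcrq, a small supernumerary subunit, with 304 and 267 TPM. Uqcr10 had 249.6 and 233 TPM, Uqcr11 238 and 208 TPM, Uqcrh, the hinge protein, 174.5 and 142 TPM, and Uqcrb 170.6 and 155.7 TPM. The core proteins, which stand on the matrix side, measured 194.6 and 148 TPM (Uqcrc1) and 114.5 and 89.1 TPM (Uqcrc2). Cyc1, which carries cytochrome c1, and Uqcrfs1, the Rieske iron-sulphur protein, were among the 3 lowest, with 107.6 and 91.2 TPM and with 95.8 and 76.0 TPM.

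Complex IV held both abundant subunits and paralogs of very low level. Cox4i1, the usual form of subunit 4, was the most abundant gene of the complex with 428 and 345 TPM, followed by Cox6b1 (379.6 and 321.6 TPM) and Cox6a1 (359.8 and 307.8 TPM). Ndufa4 measured 286 and 228 TPM. At the low end lay the paralogs Cox6b2 (1.75 and 1.35 TPM, from 29 and 20 counts), Cox6a2 (1.82 and 0.94 TPM, from 41 and 18 counts) and Cox4i2 (0.45 and 0.77 TPM, from 11 and 16 counts). These 3 were above the limit of detection and far below their partners.

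In complex V, Atp5b, the catalytic beta subunit of the F1 head, was the most abundant of all members with 896 and 748 TPM. Atp5a1, the alpha subunit with which it alternates in the head, followed with 422 and 369.5 TPM, and Atp5g3, a c-ring gene, with 315.6 and 330.6 TPM. The lowest were Atp5k, a membrane supernumerary subunit (50.1 and 34.5 TPM), Atp5s, an associated factor (4.88 and 7.14 TPM), and Atp5g2, a further c-ring gene (2.13 and 3.75 TPM in the gene table). The value of Atp5g2 depended on how reads were divided, as described further on.

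Between the animals most subunit genes were lower in replicate 2, with log2 ratios from -1.73 (Cox8b) to 0.74 (Atp5g2). The log2 ratio of replicate 2 over replicate 1, from scaled counts, had a median of -0.29 over the 83 members and of -0.01 over all 17751 genes with a mean count of 10 or more. A ratio below 0 was found for 78 of 83 members (94.0%), where 51.0% of all genes had one. The medians were -0.29 for complex I, -0.35 for complex II, -0.29 for complex III, -0.36 for complex IV and -0.22 for complex V. Scaling by the deposited TPM moved the median of all genes by 0.10 and that of the members to -0.21, which left them 0.31 below all genes.

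A difference of at least 0.32 on the log2 scale was used to count genes. By that measure 31 of 83 members (37.3%) were lower in replicate 2, against 13.8% of all genes, and 4 (4.82%) were higher, against 19.5% of all genes. The count of lower members depended on the scaling and on the table, with 18 by the deposited TPM of the gene table and 48 in the index table. Deposited TPM also moved the median log2 ratio of all genes by 0.10. The shares of all genes lower in these settings were not computed. At 2-fold or more 3 members (3.61%) were lower, against 2.23% of all genes, and 0 were higher, against 4.11%. Among nuclear protein-coding genes with a mean count of 100 or more, 29 of 79 members (36.7%) were lower by that amount, against 10.1% of those genes, and 76 (96.2%) lay below 0, against 56.2%. Among such genes under 1000 bases, 21 of 60 members (35.0%) were lower by that amount, against 11.5%.

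The tables also carry an interval for each TPM, whose confidence level the sources used here do not give. In nuclear protein-coding genes with 100 counts or more these intervals were apart and lower in replicate 2 for 60 of 79 members (75.9%), against 9.55% of such genes. They were apart and higher for 2 members (2.53%), against 17.9%. The members and these genes were not matched for counts, on which the width of an interval depends. Such intervals describe the reads of each library and not the spread between animals.

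**Figure D2:**
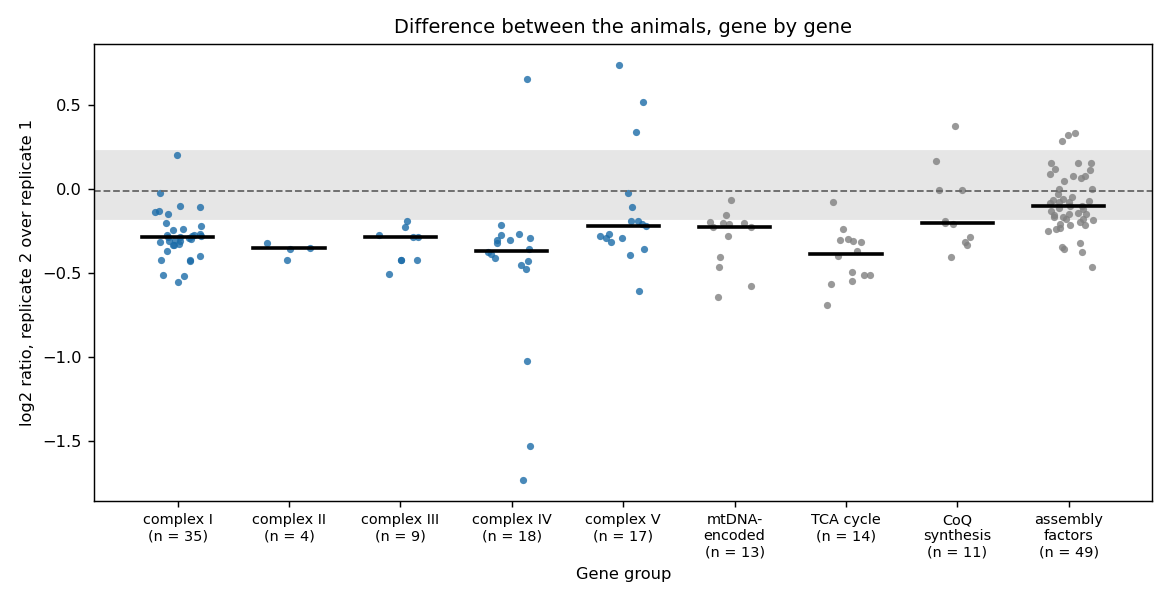
Log2 ratio of replicate 2 over replicate 1 for each measured gene (points) with the median of its group (bars), for the members by complex (blue) and for other genes of the pathway (grey). The dashed line and shaded band give the median and the middle 50% of all 17751 genes; the 5 complex medians lie between -0.36 and -0.22, below the band.

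The 27 members that were lower by at least 0.32 (log2) with intervals apart came from all 5 complexes. The share of all genes past both limits together was not computed. Of nuclear protein-coding genes with a mean count of 100 or more, 10.1% passed the first limit and 9.55% the second. At most 9.55% of those genes can therefore have passed both. In complex I they were 9: the core subunits Ndufv1, which holds the flavin, and Ndufs7, and the supernumerary subunits Ndufa1, Ndufa2, Ndufa8, Ndufb6, Ndufb8, Ndufb9 and Ndufs5. Ndufa1 differed most in complex I, with 113.8 TPM in replicate 1 and 82.8 in replicate 2, a log2 ratio of -0.55. Ndufv1 followed with 117 and 81.3 TPM, a log2 ratio of -0.52. The other 7 ranged from -0.51 (Ndufb6) to -0.32 (Ndufs7).

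In complexes II and III the genes past both limits were Sdha, Sdhc and Sdhd, with log2 ratios of -0.35, -0.35 and -0.42, and Uqcrc1, Uqcrc2, Uqcrfs1 and Uqcrh, with -0.50 for Uqcrc1 and -0.42 for each of the others. Both core proteins of complex III were therefore in the set. Sdhb had a log2 ratio of -0.32 and lay just short of the limit. The other 5 genes of complex III, Cyc1, Uqcr10, Uqcr11, Uqcrb and Uqcrq, lay between -0.29 and -0.19.

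In complex IV the set held 8 genes, of which Cox4i1, Cox5a, Cox5b, Cox6c, Cox7c and Ndufa4 had log2 ratios from -0.47 to -0.35. Cox5a and Cox5b, structural subunits, measured 137.8 and 107.9 TPM and 187.6 and 146 TPM in the animals. The remaining genes of the set were the isoforms Cox7a1 and Cox8b. In complex V the set held Atp5b (log2 ratio -0.39) and the membrane subunits Atp5j2 (-0.36) and Atp5k (-0.61).

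Few members were higher in replicate 2. Atp5g1 was the only one past 0.32 (log2) with intervals apart: it measured 78.1 TPM in replicate 1 and 120.4 TPM in replicate 2, from 1635 and 2125 counts, a log2 ratio of 0.52. Ndufc1 had a log2 ratio of 0.21 with intervals apart. Atp5s (199 and 228 counts, log2 ratio 0.34), Cox4i2 (0.66) and Atp5g2 (0.74) had overlapping intervals, and the last rested on 50.6 and 77.0 counts. Atp5g3, the most abundant c-ring gene, had a log2 ratio of -0.02, which turned to 0.07 with the deposited TPM. Of the 3 c-ring genes 0 were lower by 0.32, and of the 5 genes of the F1 head 1 was, where 13.8% of all genes were. With so few genes these counts make no contrast between the parts.

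Isoform families were compared by the share of each gene in the summed TPM of its family. The tissue-restricted isoforms Cox8b and Cox7a1 were the members that differed most between the animals. Cox8b (chr7:140898945-140900446) measured 179.7 TPM in replicate 1 and 57.6 TPM in replicate 2, from 1817 and 495 counts, 3.32-fold lower. Its share of the Cox8 family was 36.0% in replicate 1 and 17.0% in replicate 2. Cox8a, the widely expressed form, measured 319 and 282 TPM, so that it exceeded Cox8b in each animal.

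Cox7a1 (chr7:30184144-30186078) measured 80.9 and 30.0 TPM, from 934 and 292 counts, 2.89-fold lower in replicate 2. It held 40.4% and 21.8% of the sum with Cox7a2, which itself measured 119 and 107.7 TPM. Cox6a2, the third isoform known from muscle, was 2.03-fold lower but held only 0.503% and 0.305% of its family. In the index table its log2 ratio was -0.23 in place of -1.02. The Cox4, Cox6b and Ndufa4 families were dominated by 1 gene. Cox4i2 held 0.105% and 0.223%, and Cox6b2 0.459% and 0.418%. Ndufa4l2, at a mean of 14.1 ± 1.27 TPM (SD, n = 2), held 4.99% and 5.48%. Among the c-ring genes Atp5g3 held 79.7% and 72.7%, Atp5g1 19.7% and 26.5%, and Atp5g2 0.538% and 0.825%. In the index table the c-ring shares were 64.3% and 60.6% (Atp5g3), 13.9% and 19.3% (Atp5g1), and 21.8% and 20.2% (Atp5g2).

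**Figure D3:**
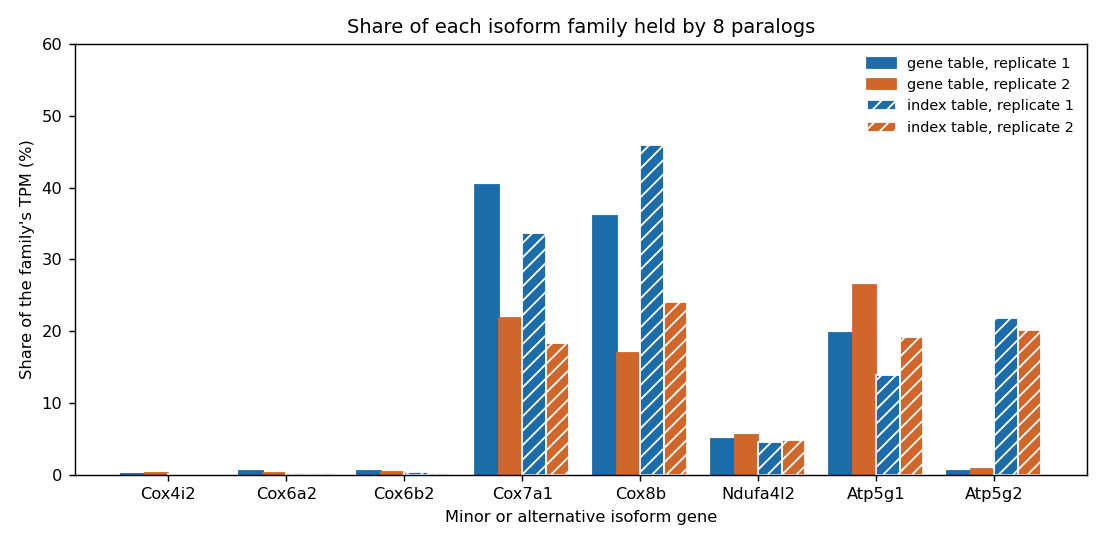
Share of the summed TPM of its isoform family (percent) held by each of 8 paralogs, in both animals and in both quantifications (plain bars, gene table; hatched bars, index table). Cox7a1 and Cox8b hold 17.0% to 40.4% of their families in the gene table with the higher bar in replicate 1, and Atp5g2 has a share above 20% in the index table alone.

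Markers of fat cells moved with these isoforms. All 4 brown adipocyte markers were lower in replicate 2, with a median log2 ratio of -1.70. Ucp1, the uncoupling protein of brown fat, measured 160.7 and 61.5 TPM, Cidea 94.0 and 26.5, Elovl3 10.2 and 4.78, and Dio2 4.04 and 0.54 TPM. Of the 7 general adipocyte markers 6 were lower by at least 0.32 (log2), where 13.8% of all genes were. Their median was -0.94, and Lep was not lower by that amount (2.04 and 2.95 TPM). The 4 smooth muscle markers were lower too, with a median of -1.06. Markers of skeletal and heart muscle were near 0: Acta1, Ckm and Myh7 had at most 6 counts in an animal, Myh4 had none, and Myh6 had 0 and 55.6 counts. Of the 6 cortex markers 0 were lower by 0.32, with a median of -0.02, and Star stood at -0.27. Of the 5 chromaffin markers 2 were, Chgb (-0.40) and Th (-0.38), with a median of -0.16. The part of these cell types in the values of Cox8b and Cox7a1, or in the lower level of the other members, was not tested.

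**Figure D4:**
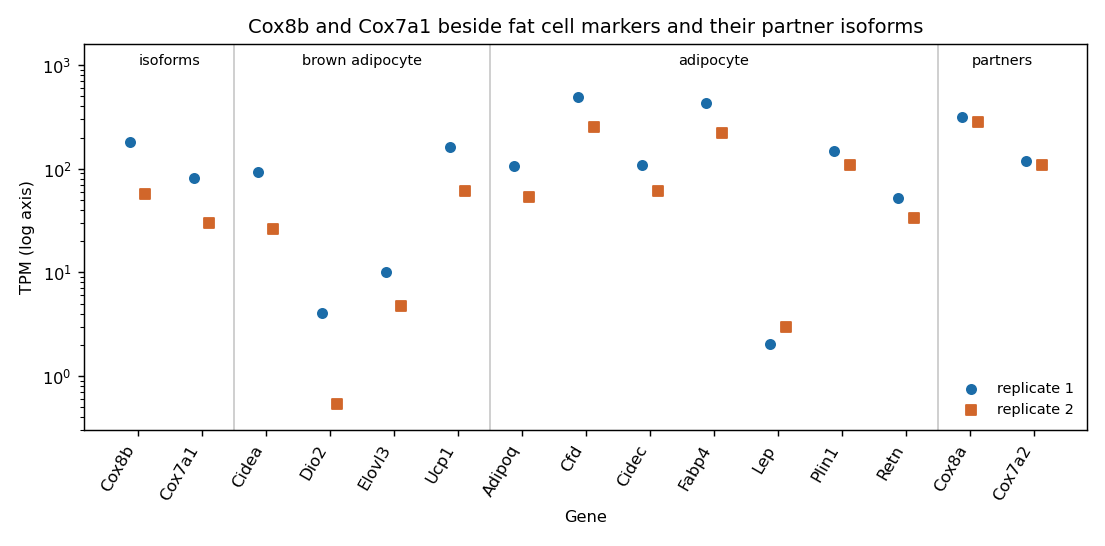
TPM (log axis) in replicate 1 (circles) and replicate 2 (squares) of Cox8b and Cox7a1, of 4 brown adipocyte and 7 adipocyte markers, and of the partner isoforms Cox8a and Cox7a2. Cox8b and Cox7a1 show gaps like those of Ucp1 (160.7 and 61.5 TPM), while Cox8a (319 and 282 TPM) and Cox7a2 (119 and 107.7 TPM) lie close together.

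Other genes of the pathway are given by list, with no test between lists; of all genes 13.8% were lower and 19.5% higher by at least 0.32, the shares against which the counts below stand. The 13 subunits encoded by mitochondrial DNA all had a negative log2 ratio (median -0.22), and 4 of them (mt-Co2, mt-Co3, mt-Nd3 and mt-Atp6) were lower by at least 0.32. The intervals of mt-Co3 and mt-Atp6 overlapped, and in the index table mt-Co2 (-0.16), mt-Co3 (-0.23) and mt-Atp6 (-0.22) did not reach that limit. The tricarboxylic acid cycle, which feeds NADH and succinate to the chain, had a median of -0.38, with 8 of 14 genes lower and 0 higher by at least 0.32. Coenzyme Q synthesis had a median of -0.20 with 2 of 11 lower and 1 higher. Cycs, somatic cytochrome c, measured 11.2 and 7.92 TPM in the gene table, a log2 ratio of -0.59, and 48.5 and 31.5 TPM in the index table, so its level depends on the table. Testis Cyct had no count.

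Assembly factors, which build the complexes without remaining in them, were far less abundant than the subunits. Over 49 such genes the median log2 ratio was -0.10, with 4 lower and 2 higher by at least 0.32, and the median level was 16.5 and 15.9 TPM. The difference between that median and the one of the subunits was not tested. Of the 11 regulators of mitochondrial biogenesis 3 were lower by that amount: Ppargc1a, a coactivator, with 256 and 79 counts (log2 ratio -1.55), Ppargc1b (-1.01) and Esrra (-0.34). Nrf1, Gabpa and Yy1, whose motifs were searched above, had log2 ratios of -0.02, -0.02 and -0.10. The steroidogenic electron carriers differed in sign: Fdx1 measured 595 and 492 TPM and Fdxr 524 and 642.8 TPM.

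Some members share sequence with other annotated genes, which limits their values. The c-ring genes Atp5g1, Atp5g2 and Atp5g3 encode the same mature protein from different chromosomes (11, 15 and 2). The last 120 coding bases before the stop codon are shown because Atp5g2 and its processed pseudogene copy cannot be separated there. Capitals mark the 30 positions at which the genes are not all alike.
Atp5g1: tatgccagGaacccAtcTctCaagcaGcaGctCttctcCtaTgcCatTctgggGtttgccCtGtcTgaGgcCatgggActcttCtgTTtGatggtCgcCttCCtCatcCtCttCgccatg
Atp5g2: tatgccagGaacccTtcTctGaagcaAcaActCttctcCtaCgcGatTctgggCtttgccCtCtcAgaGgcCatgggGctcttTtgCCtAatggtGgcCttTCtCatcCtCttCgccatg
Atp5g3: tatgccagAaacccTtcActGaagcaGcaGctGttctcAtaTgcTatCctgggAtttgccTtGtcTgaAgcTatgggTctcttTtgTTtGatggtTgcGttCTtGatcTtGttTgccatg

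In this stretch Atp5g1 and Atp5g2 were 86.7% identical, Atp5g1 and Atp5g3 82.5%, and Atp5g2 and Atp5g3 77.5%. The Atp5g2 stretch occurs whole in Gm10175 (chr7:23946646-23947290), a transcribed processed pseudogene, and 34.7% of all 100-base windows of Atp5g2 are shared with other genes. In the gene table Atp5g2 received 50.6 and 77.0 counts and Gm10175 3026 and 2428. The index table divided them the other way, with 2416 and 2121 counts for Atp5g2 and 786 and 495 for Gm10175. Atp5g2 therefore stood at 2.13 and 3.75 TPM in one table and at 94.2 and 97.1 TPM in the other. The counts of both genes together had a log2 ratio of -0.15 in the gene table and -0.18 in the index table, so the higher value of Atp5g2 alone is uncertain. Atp5g1 shares 5.92% of its windows, and with its copy Gm10039 added its log2 ratio was 0.53.

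Ndufb4 (chr16:37647170-37654453) was the other member whose TPM differed at least 2-fold between the tables. It had 33.5 and 28.7 TPM in the gene table and 85.1 and 67.8 TPM in the index table. Its processed copy Ndufb4c, among the 12 genes kept apart, held 1367 and 1036 counts in the gene table against 620 and 450 for Ndufb4. Summed, their log2 ratio was -0.27 in the gene table and -0.29 in the index table. Of the other genes kept apart, Ndufb1-ps measured 54.3 and 48.6 TPM and the rest at most 0.97 TPM.

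The remaining measured members differed by less than 2-fold between the tables. In replicate 1, 64 of 83 members lay within 0.32 (log2) between the tables, and in replicate 2, 63. By at least that amount 11 were higher in the index table in each animal, and 8 and 9 were lower. Among the higher were Cox7c (1.80- and 1.86-fold) and Cox8b (1.49- and 1.53-fold). Across genes the log2 values had a Pearson correlation of 0.92 and 0.94, given as a description since genes are not independent and both tables come from the same reads. Exons of 29 of the 83 measured members overlap another annotated gene, for 26 of them on the opposite strand, and the sources used here do not say whether reads were counted by strand. The share of all genes with such an overlap was not computed, so the count does not set the members apart. As a share of the member's exon bases the largest were those of Ndufb6 with Smim27 (39.0%) and of Ndufa13 with Tssk6 (30.0%), both on the opposite strand.

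**Figure D5:**
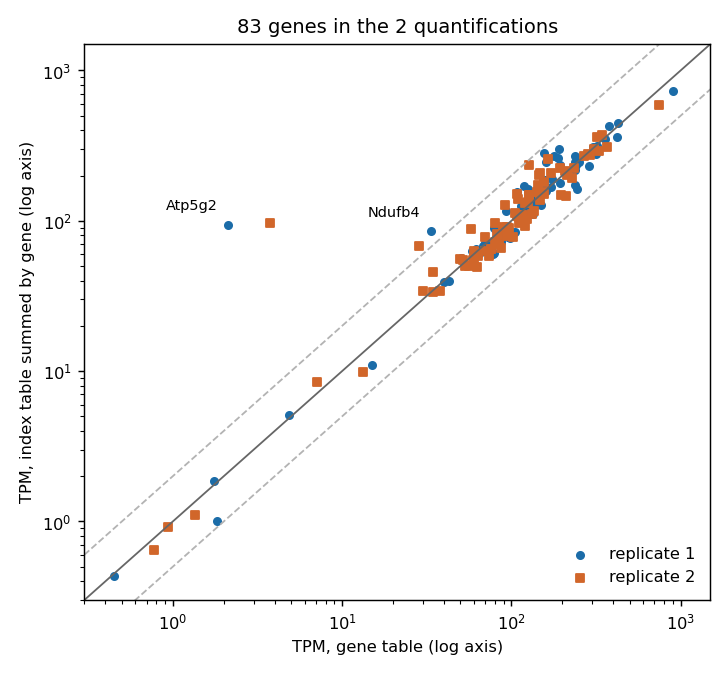
TPM of the 83 measured members in the gene table (x axis) and in the index table summed by gene (y axis), both on log axes, for replicate 1 (circles) and replicate 2 (squares). The solid line marks equal values and the dashed lines 2-fold differences; Atp5g2 (2.13 against 94.2 TPM in replicate 1) and Ndufb4 lie above the upper dashed line in both animals.

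Transcript tables showed that the most abundant annotated transcript was not always a coding one. Of the 83 members 10 have 1 annotated transcript and 73 several. In 53 of those 73 the same transcript led in both animals and both quantifications. Protein-coding transcripts made up a median of 96.0% of a gene's TPM in the alignment-based table and 92.6% in the index table. For 10 members a transcript annotated without a full coding frame, or as a decay target, led in the alignment-based table in both animals: Ndufa3, Ndufa5, Ndufb4, Ndufb10, Ndufc1, Ndufs4, Uqcrh, Cox5b, Cox7b and Atp5j. The share of all genes led by such a transcript was not computed.

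Ndufc1, the most abundant complex I gene, had 61.3% and 65.1% of its TPM in the retained-intron transcript Ndufc1-203 in the alignment-based table, and 62.7% and 63.7% in the index table. Cox7b had 62.1% and 60.6% in a retained-intron transcript in the first table and 99.2% in each animal in the other, so its division between transcripts is uncertain. Ndufa3 had 94.5% and 96.5% in a transcript annotated for nonsense-mediated decay.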

How the data were processed

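Total RNA-seq libraries from 2 animals were analysed from the deposited tables (mm10 and GENCODE M21 per the deposited notes; aligner and quantifier not given in the sources used here). The authors deposited expected counts and TPM by gene, with a lower and an upper bound of each TPM (recorded as a score and used only as an interval), from alignments, and estimated counts and TPM by transcript from an index, which were summed by gene here. Scaling factors were computed with TMM (edgeR 4.0.16) from the deposited counts rounded to whole numbers, over all genes, and log2 ratios were taken from the scaled, unrounded counts with 0.5 added. DESeq2 1.42.0 size factors were an alternative. The calculation of the ratio was checked on simulated counts in which few genes changed, as many up as down. In the data more genes differed, and unequally, so the check does not bear on the choice of scaling. Genes needed a mean expected count of 10.

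Depth was 40362256 and 34235715 gene counts. Intervals and the limit of 3 counts cover counting error only. Genes named were all of complexes II and III, the 3 highest and 3 lowest by mean TPM in I, IV and V, all isoform family genes, members at least 1.25-fold (0.32 on the log2 scale) apart with separate TPM intervals, and members with at least 2-fold different TPM between tables at 10 TPM or more. Other named genes were chosen after their values were seen. Genes that the rule would name and the text does not are not reported here. Members and lists were chosen with earlier results of these data known. Promoters came from RefSeq (GRCm38.p6) and coding bases from GENCODE M21.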

Additional observations from a re-analysis of the deposited data

How the results depend on the processing

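Each alternative changed 1 choice. A median TPM was taken as moved when it left the SD between the animals, a count when it changed by over 1.5 times, and a log2 ratio when it moved by more than the half-width of the 95% binomial interval of its genes' pooled counts, which is narrow and covers counting error alone. The complex medians kept their sign under every alternative run. Rescaling TPM over nuclear protein-coding genes gave medians of 244, 375, 453, 359 and 381 TPM for complexes I to V, full gene length gave 95.4 and 151 TPM for I and II, and the index table gave 174 and 122 TPM for IV and V. Without the tissue-restricted isoforms, an alternative chosen after seeing the data, complex IV had a median of 167 TPM and a log2 ratio of -0.32. Median log2 ratios of complexes I to V were -0.22, -0.28, -0.22, -0.30 and -0.15 when scaled by nuclear protein-coding totals and -0.20, -0.26, -0.24, -0.29 and -0.18 with deposited TPM. The index table gave -0.33, -0.33 and -0.25 for I, III and V, DESeq2 size factors -0.30 and -0.23 for I and V, a pseudocount of 5 and no count minimum -0.34 each for IV, and a mean count of 100 or more -0.24 for V. The 31 lower members became 18 with deposited TPM, 4 at 1.5-fold and 48 in the index table. For these 18, 4 and 48 the share of all genes was not computed. The 4 higher members became 2 at 1.5-fold and 2 with a mean count of 100 or more. The 43 members at 100 TPM or more became 73 on the rescaled TPM, and 78 reached 10 TPM. Atp5g2 turned to -0.072 in the index table, where the division of reads with Gm10175 bears on it. Atp5g3 turned to 0.067 with deposited TPM and to 0.048 when scaled by nuclear protein-coding totals. Ndufa11 turned from -0.022 to 0.078 and 0.046 in the same alternatives. These alternatives moved the median of all genes by 0.10 and 0.07. Leaving out an animal leaves no ratio. No paired analysis was possible because there was 1 group.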
